A study of Mus musculus with 9 samples.

Results

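The genes described here were 36 integrin subunits and focal adhesion adaptors, measured as messenger RNA in the left ventricle of young mice after pressure overload. They were picked by a rule on gene symbols, and the rule was set with earlier results of these data known. The group held 20 integrin subunits, of which 12 were alpha and 8 were beta subunits, and 16 proteins that join integrins to actin or carry their signals. They were 36 of the 16698 genes that stood on a single row of the deposited table.

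All 9 libraries were made from ICR/CD1 mice, an outbred stock, with tissue taken at postnatal day 14, and the labels name no genetic alteration in any of them. Transverse aortic constriction (TAC) is an operation that ties the aortic arch to a narrower bore and so raises the load on the left ventricle. Of the libraries, 3 were from mice given TAC on postnatal day 1 (day-1 TAC) and 3 from mice given it on postnatal day 7 (day-7 TAC). Sham mice gave the other 3, for which the labels give no day of surgery. The study asked how cardiac gene expression differs between pressure overload that begins while the mouse heart can still regenerate, shortly after birth, and overload that begins once it no longer can. With all tissue taken at the same age, time since surgery differed between the TAC groups along with age at surgery, and these cannot be told apart. Nothing in the labels ties samples to animals or litters, and p-values therefore speak of the spread among these samples, which may be in part technical.

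Integrins are receptors made of an alpha and a beta subunit that bind the matrix outside the cell and, through adaptor proteins bound to the beta tail, the actin cytoskeleton inside it. Talins and kindlins switch integrins to their binding state, vinculin and tensin strengthen the link to actin, and kinases such as focal adhesion kinase pass the signal on. In heart muscle these proteins sit at costameres, where the sarcomere is anchored to the membrane and the matrix, and they are known as sensors of stretch; fibroblasts, endothelial cells, smooth muscle cells and leukocytes of the ventricle carry sets of their own.

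Values are log2 values on the scale the authors deposited, and a change of 1 is a doubling. Reads assigned to genes were between 18538900 and 26529531 per library, as recovered from the deposited values. All group statements rest on n = 3 libraries per group. Differences were tested with limma over 13712 genes with a log2 value above 0 in at least 3 libraries, with Benjamini-Hochberg adjustment across that whole set, and a gene was called changed at an adjusted p under 0.05. Fold changes are differences of group means on the log2 scale, with their standard error (SE), and 95% intervals are not adjusted for the number of genes. Of the marker lists, that of 12 cardiomyocyte markers had the highest summed level on the linear scale. It was 112000 to 139000 in day-1 TAC, 125000 to 135000 in day-7 TAC and 142000 to 152000 in sham. Day-1 TAC replicate 3 carried 10532 reads of Xist, an RNA of the inactive X chromosome, and 18 reads of the Y-linked gene Ddx3y, against 7 to 40 and 3312 to 4706 reads in the other libraries, and values without it are given where they change a call. Day-1 TAC replicate 1 had the lowest mean correlation with its own group, at 0.979.

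Of the 36 members, 35 passed the filter, and all 35 were above 0 in all 9 libraries. Itgb7, a beta subunit of lymphocytes, failed it at -1.81 to -0.10 on the log2 scale, which was 6 to 18 reads per library. Of the 35 tested, 21 were called in at least 1 of the 3 comparisons and 14 in none. The largest change was a rise of Itga9 in both TAC groups, the largest fall was that of Tns1 in day-1 TAC, and Itgb1, the beta subunit shared by most of these receptors, was not called in any comparison.

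In day-1 TAC against sham, 15 of 35 members were called, or 42.9%, where 34.8% of all genes tested were called. Of these, 10 members were higher, or 28.6% against 14.3% of all genes, and 5 were lower, or 14.3% against 20.5%. In day-7 TAC against sham, 12 of 35 members were called, or 34.3% against 28.9% of all genes. There 9 were higher, or 25.7% against 13.8%, and 3 were lower, or 8.57% against 15.1%. The share of members called was thus near the background in both comparisons. How the calls split into higher and lower depended on single libraries in day-1 TAC against sham. There 3 members were higher and 4 lower without sham replicate 1, or 8.57% and 11.4% against 11.7% and 16.9% of all genes. Without day-1 TAC replicate 1, 4 were higher and 5 lower, or 11.4% and 14.3% against 10.2% and 16.3%. Without day-1 TAC replicate 3, and likewise without sham replicate 2, 5 were higher and 4 lower, or 14.3% and 11.4%. Of all genes, 12.4% were higher and 17.0% lower in the first of these fits, and 9.89% and 13.8% in the second. In day-7 TAC against sham, 5 to 10 members were higher and 1 to 4 lower when each library was left out, with 5 higher, or 14.3% against 10.7% of all genes, without sham replicate 1. The differences between these shares were not tested. Both comparisons use the same sham libraries.

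In day-1 TAC against day-7 TAC, 8 of 35 members were called, or 22.9% against 16.7% of all genes. Of these, 3 were higher in day-1 TAC, or 8.57% against 6.42%, and 5 were lower, or 14.3% against 10.3%. The median fold change of the members was 0.14 in day-1 TAC against sham, where that of all genes was -0.04, and 0.09 in day-7 TAC against sham, where that of all genes was -0.01. Between the TAC groups both medians were -0.03. limma's F test among the groups called 19 members, or 54.3%, where it called 44.4% of all genes.

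These counts rested in part on single libraries. The count in day-1 TAC against sham was 9 without day-1 TAC replicate 1, 9 without day-1 TAC replicate 3, 7 without sham replicate 1 and 9 without sham replicate 2. Over all genes these fits called 3613, 4022, 3893 and 3240 genes, against 4776 with every library. The member count in day-7 TAC against sham was 7 without sham replicate 1, 8 without day-7 TAC replicate 1 and 8 without day-7 TAC replicate 3. The same fits called 3017, 2952 and 3018 of all genes, against 3962. The member count in day-1 TAC against day-7 TAC was 4 without day-7 TAC replicate 1 and 4 without day-7 TAC replicate 3. There 1285 and 1298 of all genes were called, against 2287. The number of calls thus fell over all genes as well as among the members. Of the 35 calls over the 3 comparisons, 15 held whichever library was left out. Values given for a lost or gained call are adjusted p-values. With only the 2 groups compared in the fit, the day-1 TAC calls against sham of Itgb2, Itgb6, Tln1 and Ilk were lost at 0.0539 to 0.0709 and the direct call of Itga6 at 0.0565, while Itga9 was called in the direct test at 0.0173 and Zyx in day-7 TAC against sham at 0.0196. Without limma's intensity trend, Itgb6, Tln1 and Ilk were lost in day-1 TAC against sham at 0.0538 to 0.0613, Lims2 and Parvb in day-7 TAC against sham at 0.056 to 0.0802 and Itga6 in the direct test at 0.0678, while Src was called in day-1 TAC against sham at 0.0435.

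**Figure D1:**
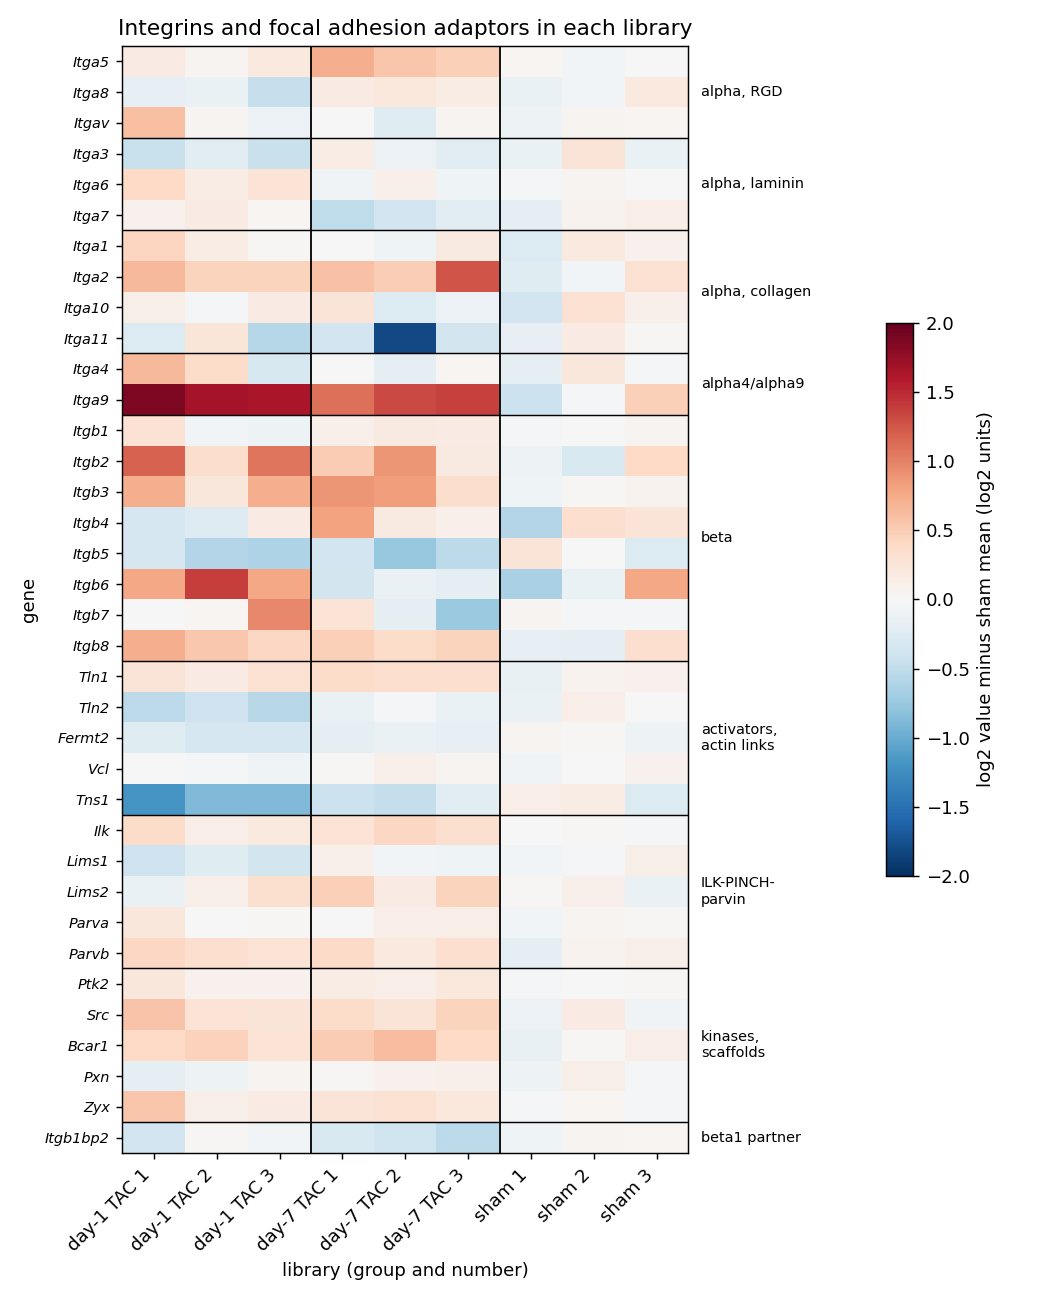
Log2 value minus the sham mean for the 36 members (rows, grouped by role) in the 9 libraries (columns, day-1 TAC, day-7 TAC, sham), on a colour scale of -2 to 2. Itga9 was above the sham mean in all 6 TAC libraries, and Tns1 was lowest in the 3 day-1 TAC libraries.

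**Figure D2:**
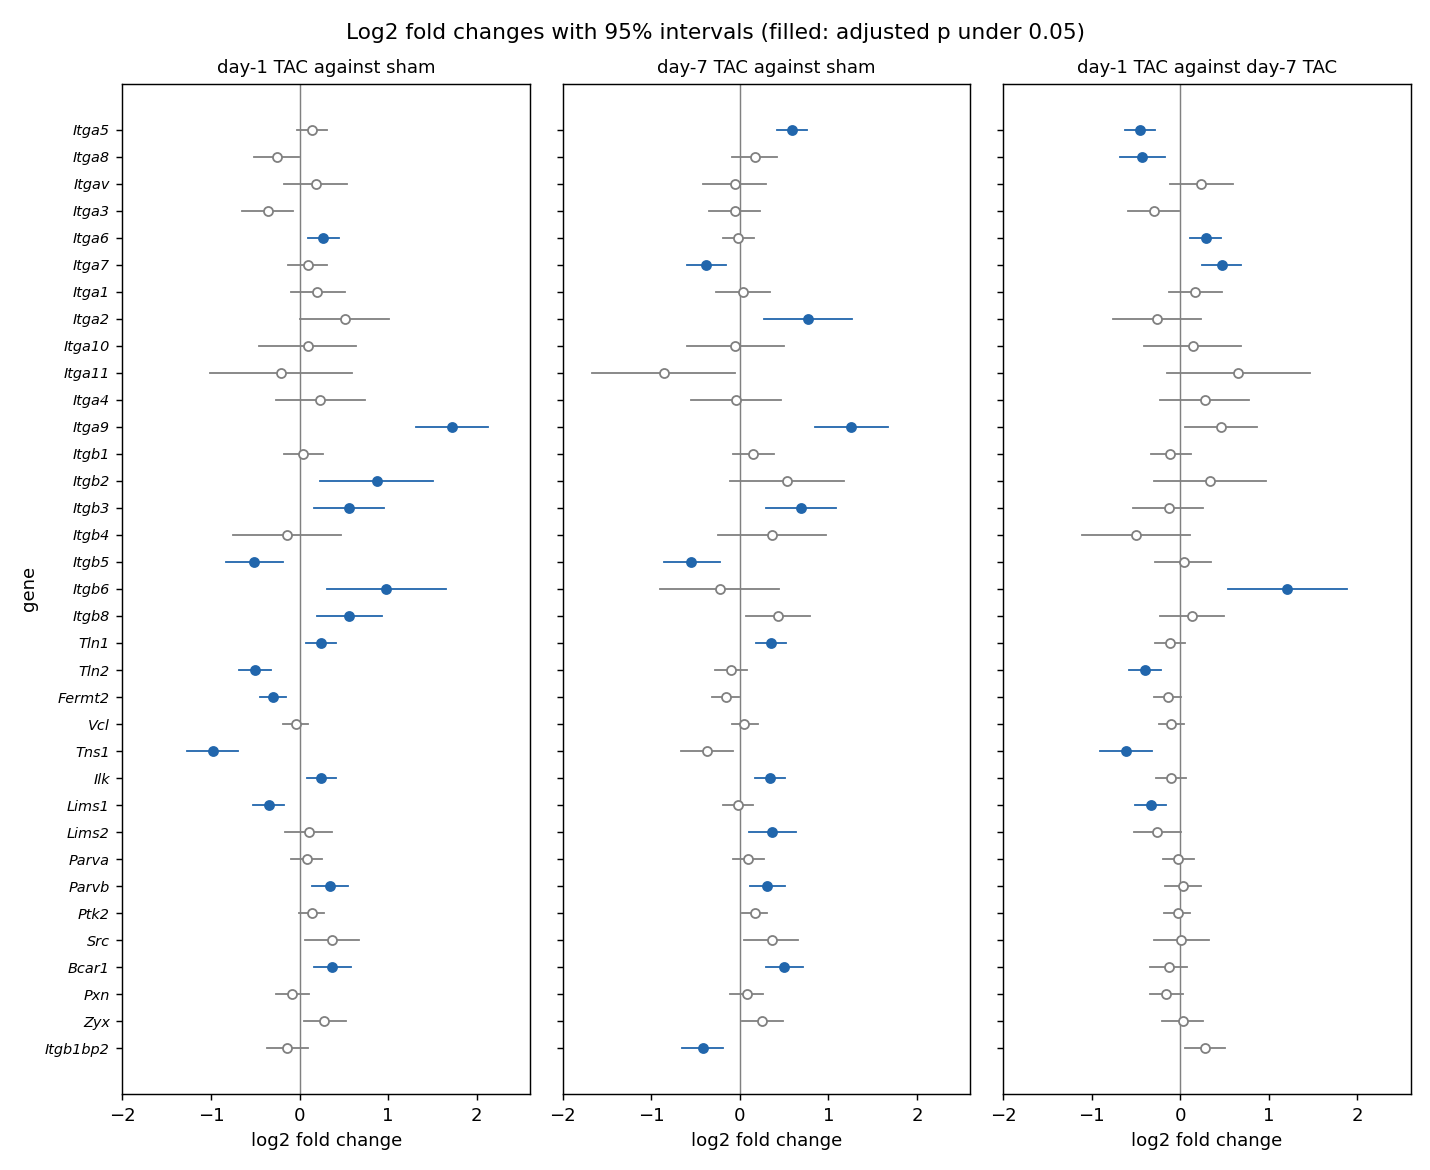
Log2 fold change with its 95% interval for the 35 tested members in day-1 TAC against sham, day-7 TAC against sham and day-1 TAC against day-7 TAC. Filled points are called at an adjusted p under 0.05, which are 15, 12 and 8 members.

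Levels of different genes were compared per kilobase of exon. The length was that of all annotated exons of a gene joined together, which can exceed that of its main transcript, so the order depends on the annotation. Itgb1 was the highest member in every group, at 8.0 ± 0.21 in day-1 TAC, 8.11 ± 0.04 in day-7 TAC and 7.96 ± 0.04 in sham (log2 per kilobase, SD, n = 3 each). Next came Itgb1bp2, which encodes the muscle protein melusin that binds the beta1 tail, at 7.24 ± 0.21, 6.96 ± 0.11 and 7.38 ± 0.07 in day-1 TAC, day-7 TAC and sham. The kindlin gene Fermt2 held place 3 and the tensin gene Tns1 place 4 in all 3 groups. Per-kilobase levels of Itgb1 and Itgb1bp2 lay further apart than their SD in each group. In sham, Itgb5 at 5.17 ± 0.27 and Vcl at 5.12 ± 0.08 held places 6 and 7 and did not differ beyond their spread.

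Among alpha subunits the order changed with the operation. In sham, Itga5 was the highest alpha subunit per kilobase at 4.55 ± 0.05, followed by Itga7 at 4.19 ± 0.17, Itga9 at 3.58 ± 0.45 and Itga6 at 3.25 ± 0.05. In day-1 TAC, Itga9 was the highest at 5.30 ± 0.12, with Itga5 at 4.69 ± 0.07 and Itga7 at 4.28 ± 0.07 after it. In day-7 TAC, Itga5 at 5.14 ± 0.13 was followed by Itga9 at 4.84 ± 0.14 and Itga7 at 3.81 ± 0.14. Itga9 thus took place 5 of 36 in day-1 TAC and place 12 in day-7 TAC, against place 15 in sham. The lowest places in every group were those of Itga10 and Itgb7. The order of the alpha subunits rests on these exon lengths, which were 8.09 kilobases for Itga7, 7.69 for Itga9 and 4.93 for Itga5. Before division by length, Itga7 at 7.20 was above Itga5 at 6.85 in sham. In day-7 TAC, Itga9 at 7.78 was then above Itga5 at 7.44.

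**Figure D3:**
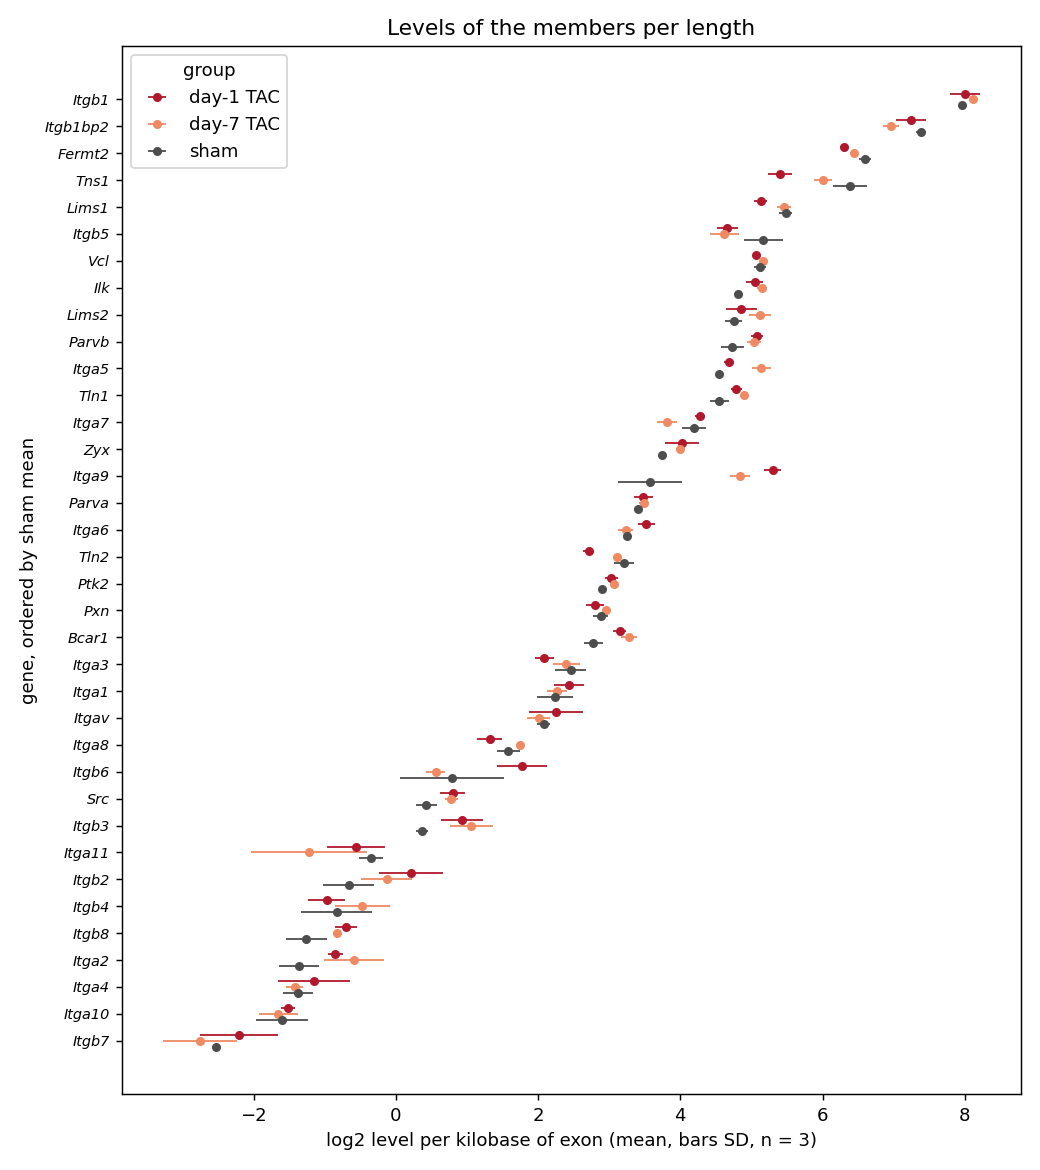
Level of each member per kilobase of exon (log2, mean ± SD, n = 3 per group) in day-1 TAC, day-7 TAC and sham, ordered by the sham mean. Itgb1 leads in all groups, and the day-1 TAC point of Itga9, at 5.30, stands well above its sham point, at 3.58.

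Promoter windows of 4 members are printed because they set genes that differed between the groups beside genes of the same adhesion plaque that share a motif. Itga5 was called higher in day-7 TAC, Tns1 and Fermt2 were called lower in day-1 TAC, and Vcl was called in no comparison. Each window runs from 250 bases before to 50 bases after the RefSeq start on GRCm38.p6, 5′ to 3′ on the gene's strand. The positions are chr15:103366742-103367041 on the minus strand for Itga5, chr1:74124499-74124798 on the minus strand for Tns1, chr14:45530016-45530315 on the minus strand for Fermt2 and chr14:20929148-20929447 on the plus strand for Vcl. Capitals mark matches to GGGCGG, the core of the Sp1-type GC box, to GGAATG, a TEAD-type motif, and to the SRF-type CArG box, each searched on both strands; TGACTCA and TGAGTCA, AP-1-type motifs, were searched too and are not in these 4 windows.
Itga5: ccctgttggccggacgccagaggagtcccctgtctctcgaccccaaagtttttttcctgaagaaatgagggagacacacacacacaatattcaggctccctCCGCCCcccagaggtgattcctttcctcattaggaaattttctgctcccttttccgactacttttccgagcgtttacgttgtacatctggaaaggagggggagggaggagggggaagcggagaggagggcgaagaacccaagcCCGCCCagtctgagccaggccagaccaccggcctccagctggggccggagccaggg
Tns1: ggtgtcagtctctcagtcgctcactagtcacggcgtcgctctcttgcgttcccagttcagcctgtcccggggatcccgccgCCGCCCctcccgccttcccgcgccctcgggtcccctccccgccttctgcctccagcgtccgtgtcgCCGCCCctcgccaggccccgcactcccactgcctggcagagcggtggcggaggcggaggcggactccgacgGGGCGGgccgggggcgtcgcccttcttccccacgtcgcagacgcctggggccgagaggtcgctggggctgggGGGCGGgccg
Fermt2: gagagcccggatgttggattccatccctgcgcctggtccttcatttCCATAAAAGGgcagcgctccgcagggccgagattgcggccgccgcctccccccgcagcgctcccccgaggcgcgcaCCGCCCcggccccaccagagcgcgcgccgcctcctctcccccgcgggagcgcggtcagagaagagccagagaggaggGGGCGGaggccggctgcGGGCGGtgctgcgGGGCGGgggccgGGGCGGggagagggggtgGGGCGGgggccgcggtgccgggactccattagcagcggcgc
Vcl: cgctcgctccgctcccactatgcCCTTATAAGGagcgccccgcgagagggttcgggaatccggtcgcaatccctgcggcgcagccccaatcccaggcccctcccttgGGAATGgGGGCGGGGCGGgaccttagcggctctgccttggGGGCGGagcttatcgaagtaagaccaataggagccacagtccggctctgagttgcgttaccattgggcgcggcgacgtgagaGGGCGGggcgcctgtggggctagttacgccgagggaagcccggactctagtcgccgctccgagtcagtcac
The CArG box began at position -204 in Fermt2 and -227 in Vcl, counted from the RefSeq start, and these were the only 2 of 25 members with a window that held it. It is in 1.63% of all 32851 windows of this length. GGGCGG was in 15 of the 25 member windows, or 60.0%, and in 35.7% of all windows, with 2 of its matches in Vcl overlapping. GGAATG was in 3 member windows, or 12% against 14.7% of all windows, and TGACTCA or TGAGTCA in 2, those of Itga9 and Zyx, or 8.0% against 5.2%. A match is a string of letters and not a measured site, and no binding was measured in these samples. The RefSeq start of Itga9 lies 105002 bases from its GENCODE start, so that window is not shown. Those of Src, whose window is counted with GGGCGG, and Itgb8 lie 5849 and 526 bases away. The starts of 22 of the 25 members lie within 300 bases. Each member was counted by only the window nearest its GENCODE start, while the share of all windows was taken without such a choice. The member and background shares are therefore not like for like, and their differences were not tested.

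Itga9, which pairs with beta1 and is known as a receptor for tenascin-C, osteopontin and other matrix proteins, rose most of all members. It lies at chr9:118606690-118901003 on the plus strand (GENCODE, GRCm38). Its log2 values were 8.39, 8.19 and 8.16 in day-1 TAC, 7.62, 7.84 and 7.89 in day-7 TAC and 6.09, 6.49 and 6.99 in sham. The 3 groups did not overlap, and the sham libraries were spread more widely than either TAC group. The fold change against sham was 1.72 (SE 0.18) in day-1 TAC, with an adjusted p of 0.000211, and 1.26 (SE 0.18) in day-7 TAC, with an adjusted p of 0.00104. These are levels 3.30 and 2.40 times those of sham. Between the TAC groups the fold change of 0.46 (SE 0.18) was not called, with an adjusted p of 0.109, though it was 0.0384 without sham replicate 1 and 0.03 without sham replicate 3. In ventricle tissue, more cells of a type and more RNA per cell cannot be told apart, for this gene or any other here.

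Itga4, the nearest relative of Itga9 and a receptor of leukocytes for VCAM-1 and fibronectin, was not called. It ranged from 2.11 to 3.08 in day-1 TAC, from 2.24 to 2.47 in day-7 TAC and from 2.23 to 2.65 in sham. The groups overlapped, and its 95% interval was -0.27 to 0.74 in day-1 TAC against sham and -0.55 to 0.46 in day-7 TAC against sham.

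Among the alpha subunits that bind RGD-bearing ligands, Itga5 was called higher in day-7 TAC and Itga8 differed between the TAC groups, while Itgav was not called. Itga5, which with beta1 forms the main fibronectin receptor, was 7.02, 6.91 and 7.04 in day-1 TAC, 7.58, 7.41 and 7.33 in day-7 TAC and 6.89, 6.80 and 6.86 in sham. All 3 day-7 TAC libraries lay above every other library, and the day-1 TAC libraries lay just above sham without overlap. This was a fold change of 0.59 (SE 0.08) in day-7 TAC against sham, with an adjusted p of 0.000592, and 0.14 (SE 0.08) in day-1 TAC against sham, with an adjusted p of 0.18. In the direct test, day-1 TAC was lower than day-7 TAC by a fold change of -0.45 (SE 0.08), with an adjusted p of 0.0052. The Itga5 calls held whichever library was left out.

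Itga8, which with beta1 binds nephronectin and is known from smooth muscle and other mesenchymal cells, was 4.29, 4.33 and 4.0 in day-1 TAC, 4.62, 4.67 and 4.61 in day-7 TAC and 4.33, 4.41 and 4.65 in sham. Day-1 TAC lay below both other groups, though its highest library and the lowest sham library differed by less than the rounding, and sham overlapped with day-7 TAC. The fold change in day-1 TAC against day-7 TAC was -0.43 (SE 0.11), with an adjusted p of 0.03, and the fold change against sham was -0.26 in day-1 TAC and 0.17 in day-7 TAC, neither of them called. The direct call was lost, at an adjusted p of 0.0727 to 0.0868, without day-1 TAC replicate 3 or any 1 of the day-7 TAC libraries. Itgav, the alpha subunit that pairs with beta1, beta3, beta5, beta6 or beta8, ranged from 5.38 to 6.10 in day-1 TAC, from 5.26 to 5.56 in day-7 TAC and from 5.40 to 5.56 in sham. Its highest value was that of day-1 TAC replicate 1, and its 95% interval in day-1 TAC against sham was -0.18 to 0.53.

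Among laminin-binding alpha subunits, the TAC groups differed in the direct test for Itga7 and Itga6, both higher in day-1 TAC. Itga7, the main laminin-binding alpha subunit of mature striated muscle, was 7.28, 7.37 and 7.24 in day-1 TAC, 6.69, 6.81 and 6.97 in day-7 TAC and 7.01, 7.27 and 7.34 in sham. All day-7 TAC libraries lay below every library of the other groups, which overlapped with each other. The fold change in day-7 TAC against sham was -0.38 (SE 0.10), with an adjusted p of 0.0172, and in day-1 TAC against day-7 TAC it was 0.47 (SE 0.10), with an adjusted p of 0.0118. In day-1 TAC against sham it was 0.09 (SE 0.10), with a 95% interval of -0.13 to 0.31. The call in day-7 TAC against sham was lost, at an adjusted p of 0.055 to 0.0643, without day-7 TAC replicate 1, day-7 TAC replicate 2, sham replicate 2 or sham replicate 3, and the direct call held whichever library was left out.

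Itga6, a laminin receptor of endothelium, epithelia and other cells, was 6.82, 6.57 and 6.69 in day-1 TAC, 6.35, 6.52 and 6.34 in day-7 TAC and 6.38, 6.47 and 6.41 in sham. Day-1 TAC lay above both other groups without overlap. limma gave a fold change of 0.27 (SE 0.08) in day-1 TAC against sham, with an adjusted p of 0.0248, and 0.29 (SE 0.08) in day-1 TAC against day-7 TAC, with an adjusted p of 0.0361. The first call was lost, at an adjusted p of 0.0546 to 0.0829, without day-1 TAC replicate 1, day-1 TAC replicate 3, sham replicate 1 or sham replicate 3. The second was lost, at 0.0773 to 0.114, without day-1 TAC replicate 1, day-1 TAC replicate 3 or either of replicates 1 and 3 of day-7 TAC. The summed level of 10 endothelial markers was 1590 to 1740 in day-1 TAC, 1740 to 1830 in day-7 TAC and 1810 to 1900 in sham, with 5 of 10 lower and 0 higher in day-1 TAC against sham, and its part in the Itga6 result was not tested. Itga3, which also binds laminins, ranged from 4.53 to 4.76 in day-1 TAC, from 4.76 to 5.12 in day-7 TAC and from 4.84 to 5.22 in sham. It was not called in day-1 TAC against sham, at a fold change of -0.36 and an adjusted p of 0.056, which was 0.0464 without day-1 TAC replicate 2 and 0.0458 without day-7 TAC replicate 1.

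Of the 4 collagen-binding alpha subunits, Itga2 was called in day-7 TAC against sham and Itga1, Itga10 and Itga11 were not called. Itga2, known from platelets and epithelia, was 2.12, 1.92 and 1.92 in day-1 TAC, 2.05, 1.96 and 2.72 in day-7 TAC and 1.23, 1.41 and 1.78 in sham. Both TAC groups lay above sham without overlap, at 47 to 139 reads per library. The fold change in day-7 TAC was 0.77 (SE 0.23), with an adjusted p of 0.0279, and in day-1 TAC it was 0.51 (SE 0.23), with an adjusted p of 0.103. The call was lost, at an adjusted p of 0.0799 to 0.0955, without day-7 TAC replicate 3, sham replicate 1 or sham replicate 2. The summed level of 7 platelet and megakaryocyte markers, of which 2 passed the filter, was 11.2 to 17.1 in day-1 TAC, 7.93 to 10.2 in day-7 TAC and 7.42 to 8.80 in sham, and its part in the Itga2 result was not tested.

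Itga1, the highest of the collagen-binding alpha subunits per kilobase, ranged from 6.48 to 6.89 in day-1 TAC, from 6.37 to 6.64 in day-7 TAC and from 6.18 to 6.65 in sham. Itga11, known from fibroblasts, ranged from 1.43 to 2.24, from 0.20 to 1.63 and from 1.83 to 2.17 in day-1 TAC, day-7 TAC and sham. Its day-7 TAC values lay below all sham values, with replicate 2 the lowest at 0.20, and the fold change of -0.86 had an adjusted p of 0.0994. Itga10 had 26 to 54 reads per library and overlapping groups. Of its exon bases, 33.5% overlap the gene model Gm42957 on the same strand, so its values are uncertain.

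Beta subunits held 5 of the 15 calls in day-1 TAC against sham, with Itgb2, Itgb3, Itgb6 and Itgb8 higher and Itgb5 lower, of 7 tested, where 14.3% of all genes were higher and 20.5% lower. Itgb1, the partner of the alpha subunits named above, was 10.28, 9.93 and 9.89 in day-1 TAC, 10.09, 10.17 and 10.16 in day-7 TAC and 9.95, 9.98 and 10.04 in sham. The groups overlapped except that day-7 TAC lay just above sham, and day-1 TAC replicate 1 was the highest library. The 95% interval of the fold change was -0.18 to 0.27 in day-1 TAC against sham and -0.08 to 0.38 in day-7 TAC against sham.

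Itgb5, which with alphav binds vitronectin, was 6.66, 6.42 and 6.38 in day-1 TAC, 6.62, 6.24 and 6.48 in day-7 TAC and 7.26, 7.01 and 6.72 in sham. Every TAC library lay below every sham library. The fold change was -0.51 (SE 0.14) in day-1 TAC, with an adjusted p of 0.0194, and -0.55 (SE 0.14) in day-7 TAC, with an adjusted p of 0.0167. In day-1 TAC the call was lost, at 0.0544 to 0.0652, without day-1 TAC replicate 2, day-1 TAC replicate 3, sham replicate 1 or sham replicate 2. In day-7 TAC it was lost, at 0.0683 without day-7 TAC replicate 2 and 0.0558 without sham replicate 1.

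Itgb3, which pairs with alphav and on platelets with the product of Itga2b, was 3.66, 3.15 and 3.66 in day-1 TAC, 3.82, 3.77 and 3.28 in day-7 TAC and 2.84, 2.95 and 3.00 in sham. Every TAC library lay above every sham library. This was a fold change of 0.56 (SE 0.18) in day-1 TAC, with an adjusted p of 0.0341, and 0.69 (SE 0.18) in day-7 TAC, with an adjusted p of 0.0161. The day-1 TAC call was lost, at 0.0539 to 0.104, without day-1 TAC replicate 1, day-1 TAC replicate 3 or any 1 of the sham libraries. The day-7 TAC call was lost, at 0.0516 to 0.0632, without replicate 1 or 2 of day-7 TAC or sham replicate 1. Itga2b ranged from 1.51 to 2.37 in day-1 TAC, from 1.19 to 1.49 in day-7 TAC and from 1.16 to 1.74 in sham, and the part of platelets in the Itgb3 result was not tested.

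Itgb6, which with alphav releases latent TGF-beta and is best known from epithelia, was 4.40, 5.01 and 4.39 in day-1 TAC, 3.25, 3.49 and 3.44 in day-7 TAC and 2.97, 3.49 and 4.40 in sham. Day-1 TAC lay above day-7 TAC without overlap, and sham replicate 3 reached the level of day-1 TAC. limma gave a fold change of 1.21 (SE 0.30) in day-1 TAC against day-7 TAC, with an adjusted p of 0.0239, and 0.98 (SE 0.30) in day-1 TAC against sham, with an adjusted p of 0.0295. The direct call was lost, at 0.0564 to 0.0754, without day-1 TAC replicate 2 or any 1 of the day-7 TAC libraries. The call against sham was lost, at 0.0887 to 0.0966, without day-1 TAC replicate 2, sham replicate 1 or sham replicate 2. In day-7 TAC against sham the fold change was -0.23, with a 95% interval of -0.90 to 0.44.

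Itgb8, the other beta subunit known to release latent TGF-beta with alphav, was 2.93, 2.75 and 2.63 in day-1 TAC, 2.68, 2.58 and 2.65 in day-7 TAC and 2.05, 2.02 and 2.54 in sham. All 6 TAC libraries lay above the 3 sham libraries. The fold change was 0.56 (SE 0.16) in day-1 TAC, with an adjusted p of 0.0225, and 0.43 in day-7 TAC, with an adjusted p of 0.0712. The first was lost, at 0.0714 to 0.0871, without day-1 TAC replicate 1, sham replicate 1 or sham replicate 2, and the second was 0.0172 without sham replicate 3. Itgb4, the partner of alpha6 in epithelia, was not called and overlapped between the groups at 53 to 165 reads per library.

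Itgb2, the beta subunit of leukocyte integrins, was 2.13, 1.30 and 2.02 in day-1 TAC, 1.46, 1.84 and 1.13 in day-7 TAC and 0.85, 0.64 and 1.35 in sham, at 36 to 92 reads per library. Day-1 TAC and sham overlapped by 1 library. limma gave a fold change of 0.87 (SE 0.29) in day-1 TAC against sham, with an adjusted p of 0.0388, and it was lost, at 0.0518 to 0.131, without day-1 TAC replicate 1, day-1 TAC replicate 3, day-7 TAC replicate 1, sham replicate 1 or sham replicate 2. Its partner Itgam, which is not among the 36 genes, averaged 2.61 in day-1 TAC, 2.5 in day-7 TAC and 1.79 in sham. The Itgam fold change was 0.82 in day-1 TAC, with an adjusted p of 0.0157, and 0.71 in day-7 TAC, with an adjusted p of 0.0336, and 68.7% of its exon bases overlap the gene model Gm49368 on the same strand.

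Leukocyte markers differed between the groups too. The summed level of 11 macrophage markers, of which Itgam is one, was 174 to 235 in day-1 TAC, 109 to 128 in day-7 TAC and 156 to 211 in sham. Against sham, 5 of the 11 were higher and 1 lower in day-1 TAC, and 1 was higher and 4 lower in day-7 TAC. The summed level of 8 neutrophil markers was 7.29 to 32.6 in day-1 TAC, 31.3 to 70.3 in day-7 TAC and 2.13 to 4.39 in sham, and of the 7 tested 5 were higher in day-1 TAC and 7 in day-7 TAC. Lymphocyte markers summed to 6.89 to 9.05, 6.60 to 9.89 and 4.94 to 9.53 in day-1 TAC, day-7 TAC and sham, with 0 of 3 tested called. None of these markers was at 3 reads or fewer in every library, and their part in the Itgb2 and Itgb3 results was not tested.

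**Figure D4:**
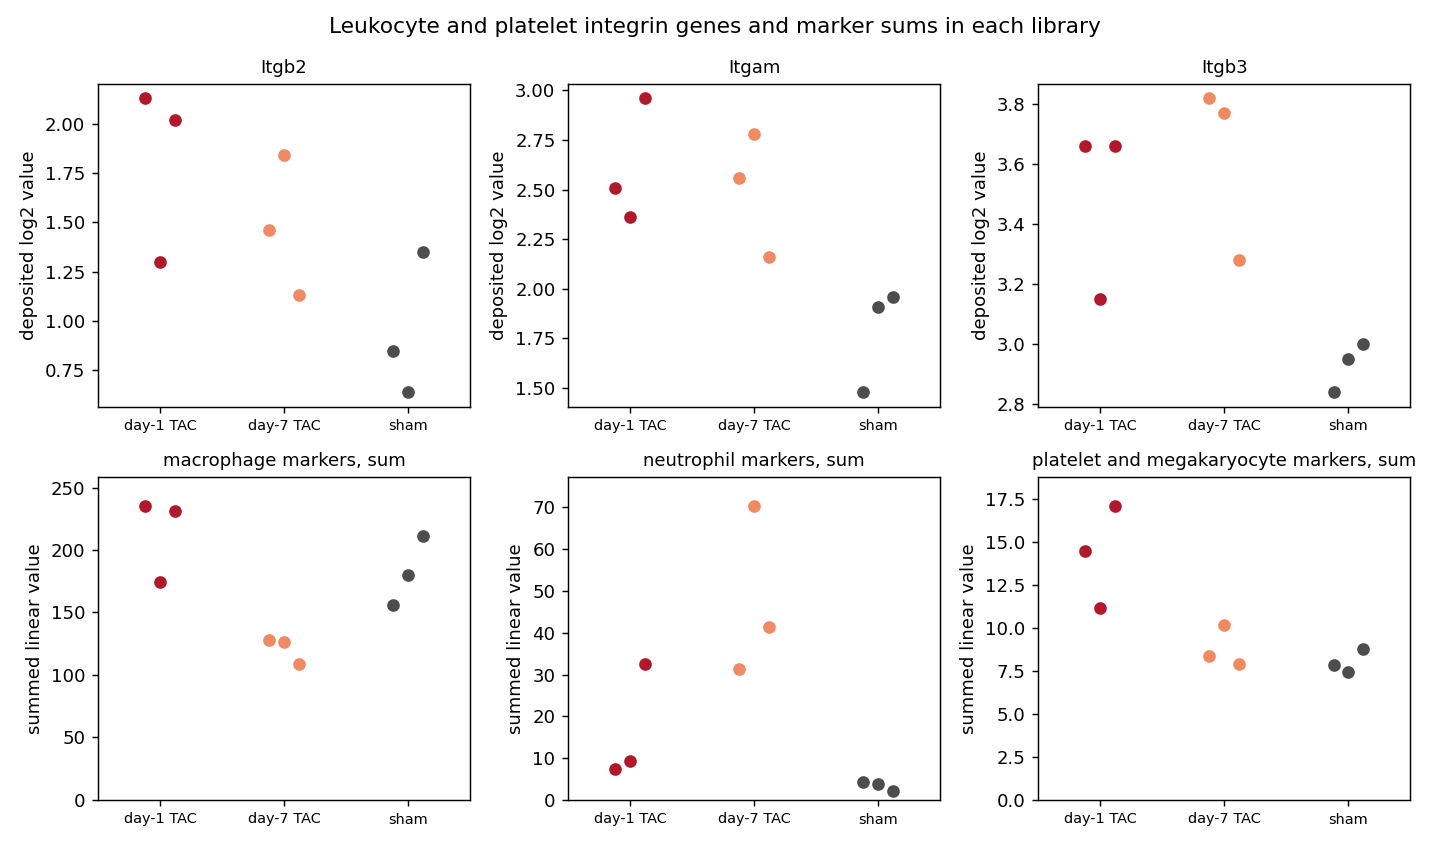
Log2 values of Itgb2, Itgam and Itgb3 and summed linear levels of macrophage, neutrophil and platelet markers in each library of day-1 TAC, day-7 TAC and sham. Neutrophil markers reach 70.3 in day-7 TAC, macrophage markers are lowest there, at 109 to 128, and Itgb3 lies above sham in all 6 TAC libraries.

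Among the integrin activators and links to actin, Tln1 was called higher and Tln2, Fermt2 and Tns1 were called lower in day-1 TAC, while Vcl was called in no comparison. Talins bind the beta tail and bring integrins to their binding state. Tln1, the talin of most cell types, was 8.10, 8.0 and 8.15 in day-1 TAC, 8.21, 8.18 and 8.18 in day-7 TAC and 7.69, 7.91 and 7.92 in sham. Tln2, the talin gene with higher expression in heart and brain than in most tissues, was 6.88, 7.00 and 6.86 in day-1 TAC, 7.28, 7.38 and 7.27 in day-7 TAC and 7.27, 7.55 and 7.41 in sham. Every TAC library lay above sham for Tln1, and the day-1 TAC libraries lay below all others for Tln2.

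The Tln1 fold change was 0.24 (SE 0.08) in day-1 TAC, with an adjusted p of 0.0333, and 0.35 (SE 0.08) in day-7 TAC, with an adjusted p of 0.00798. The first was lost, at 0.0763 to 0.0996, without day-1 TAC replicate 1, day-1 TAC replicate 3 or sham replicate 1. The Tln2 fold change was -0.50 (SE 0.08) in day-1 TAC against sham, with an adjusted p of 0.00147, and -0.40 (SE 0.08) in day-1 TAC against day-7 TAC, with an adjusted p of 0.0104. In day-7 TAC against sham it was -0.10, with an adjusted p of 0.374. The Tln2 calls held whichever library was left out. Per kilobase, Tln1 was above Tln2 in all groups, at 4.79 and 2.71 in day-1 TAC, 4.90 and 3.11 in day-7 TAC and 4.55 and 3.21 in sham.

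Tns1, or tensin-1, which ties beta tails to actin in mature adhesions, fell most of all members. It lies at chr1:73910231-74124449 on the minus strand (GENCODE, GRCm38), and its promoter window is printed above. Its values were 9.21, 9.51 and 9.50 in day-1 TAC, 9.96, 9.92 and 10.16 in day-7 TAC and 10.52, 10.54 and 10.11 in sham. Day-1 TAC lay below both other groups without overlap, and day-7 TAC overlapped sham at its replicate 3. limma gave a fold change of -0.98 (SE 0.13) in day-1 TAC against sham, with an adjusted p of 0.000586, which held whichever library was left out, and corresponds to a level 0.506 times that of sham. It was -0.61 (SE 0.13) in day-1 TAC against day-7 TAC, with an adjusted p of 0.0133, or 0.0538 without day-7 TAC replicate 3. In day-7 TAC against sham the fold change was -0.37, with an adjusted p of 0.0557, which was 0.0389 without day-1 TAC replicate 1 and 0.0117 without sham replicate 3.

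The summed level of 10 smooth muscle and pericyte markers, cells in which tensins are also found, was 1670 to 2050 in day-1 TAC, 2290 to 2400 in day-7 TAC and 2330 to 2520 in sham. Of these 10 markers, 2 were higher and 3 lower in day-1 TAC against sham. Tagln and Cspg4 were higher, by 0.51 and 0.52, and Abcc9, Kcnj8 and Rgs5 had fold changes of -1.08, -0.44 and -0.30. The sum gives most weight to genes of high level, such as Abcc9, at a log2 mean of 8.46 in day-1 TAC and 9.55 in sham. The median fold change of the 10 markers was 0.17, so the lower sum does not describe them all. The part of these cells in the Tns1 and Itga8 results was not tested.

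Fermt2 encodes kindlin-2, the kindlin of heart muscle. It was 8.73, 8.65 and 8.64 in day-1 TAC, 8.78, 8.85 and 8.81 in day-7 TAC and 9.04, 9.0 and 8.88 in sham. The 3 groups did not overlap, with day-1 TAC lowest. The fold change was -0.30 (SE 0.07) in day-1 TAC against sham, with an adjusted p of 0.00726, and -0.16 in day-7 TAC, with an adjusted p of 0.0985. Vcl, or vinculin, which binds stretched talin, was 8.15, 8.11 and 8.07 in day-1 TAC, 8.17, 8.25 and 8.21 in day-7 TAC and 8.08, 8.16 and 8.23 in sham. Day-1 TAC lay below day-7 TAC without overlap, and both overlapped sham. The 95% interval was -0.19 to 0.10 in day-1 TAC against sham and -0.09 to 0.20 in day-7 TAC against sham, and 25.5% of the exon bases of Vcl overlap Ap3m1 on the opposite strand. Whether counting used strand is not given in the sources used here.

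**Figure D5:**
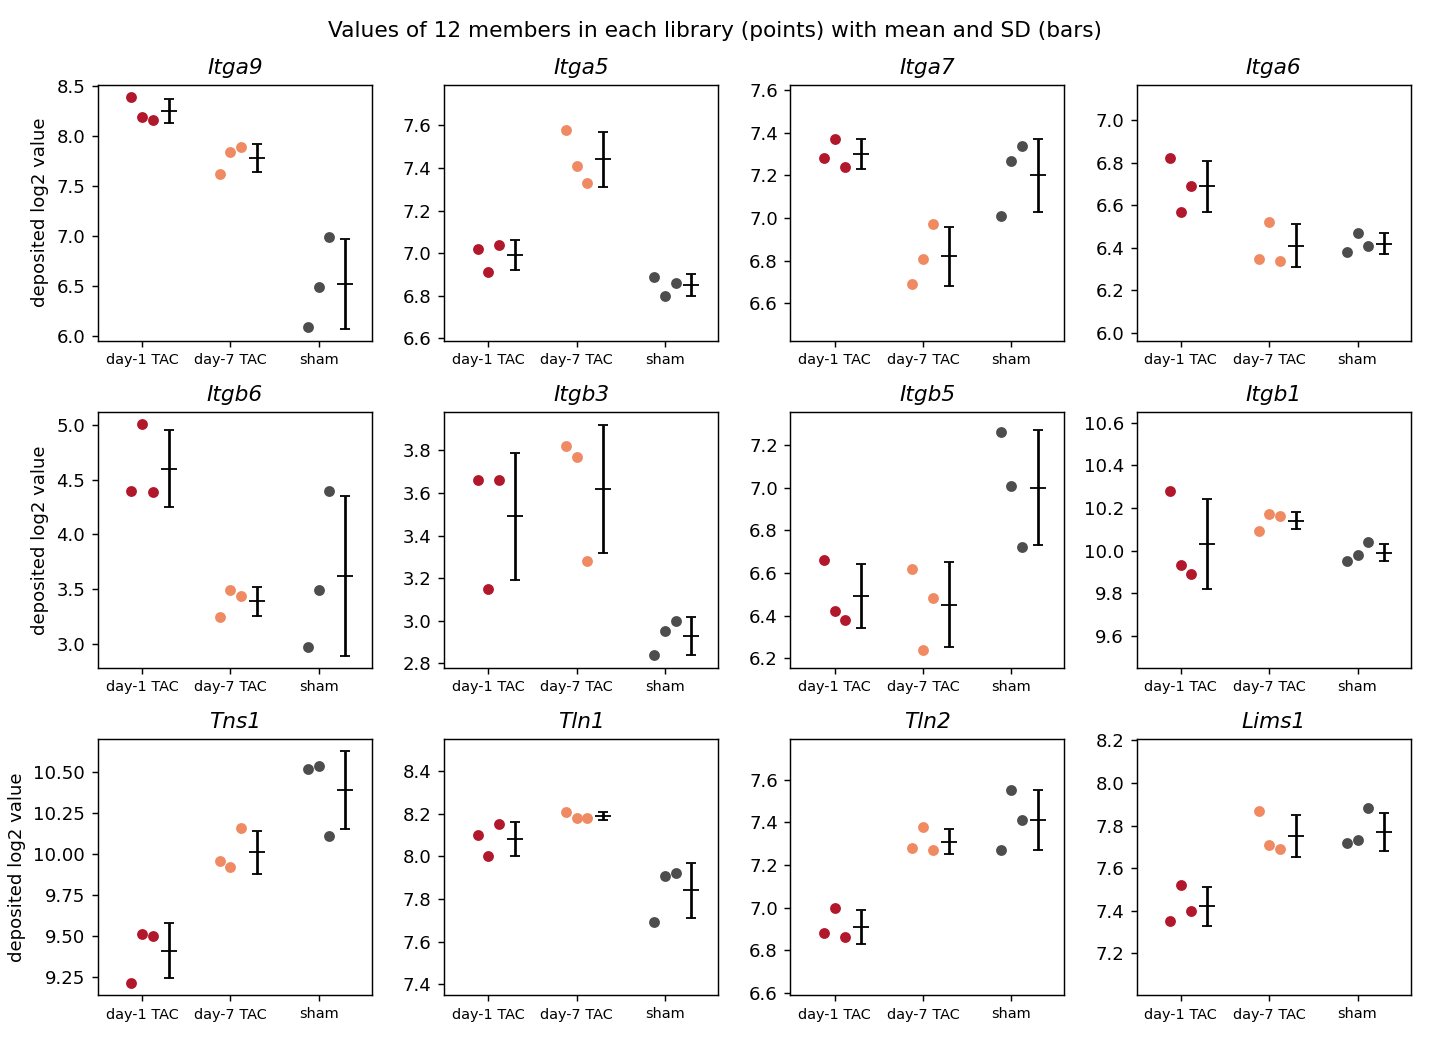
Log2 values of 12 members in each library, with the group mean and SD (n = 3), for day-1 TAC, day-7 TAC and sham. Itga9 is highest and Tns1 and Tln2 are lowest in day-1 TAC, and Itga5 is highest and Itga7 lowest in day-7 TAC. Itgb1 in day-1 TAC overlaps both other groups, and in day-7 TAC it lies just above sham.

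The ILK-PINCH-parvin complex is a scaffold at the beta tail that passes force to actin. Of its 5 genes, 2 were higher and 1 lower in day-1 TAC against sham, 3 were higher and 0 lower in day-7 TAC against sham, and 1 was lower in day-1 TAC against day-7 TAC. Of all genes, 14.3% were higher and 20.5% lower in the first comparison, 13.8% higher and 15.1% lower in the second, and 10.3% lower in the third. Ilk, the pseudokinase at its centre, was 6.64, 6.41 and 6.47 in day-1 TAC, 6.55, 6.68 and 6.59 in day-7 TAC and 6.27, 6.30 and 6.23 in sham. Every TAC library lay above every sham library. This was a fold change of 0.24 (SE 0.08) in day-1 TAC, with an adjusted p of 0.0301, and 0.34 (SE 0.08) in day-7 TAC, with an adjusted p of 0.00786. The first was lost, at 0.0515 to 0.0967, without day-1 TAC replicate 1, day-1 TAC replicate 3 or any 1 of the sham libraries, and the second held. Of the exon bases of Ilk, 76.7% overlap Taf10 on the opposite strand, so its values are uncertain where counting ignored strand.

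The PINCH genes moved in different comparisons. Lims1, which encodes PINCH-1, was 7.35, 7.52 and 7.40 in day-1 TAC, 7.87, 7.71 and 7.69 in day-7 TAC and 7.72, 7.73 and 7.88 in sham. Day-1 TAC lay below both other groups, which overlapped. limma gave a fold change of -0.35 (SE 0.08) in day-1 TAC against sham, with an adjusted p of 0.0064, and -0.33 (SE 0.08) in day-1 TAC against day-7 TAC, with an adjusted p of 0.0175, or 0.0666 without day-7 TAC replicate 1. Lims2, which encodes PINCH-2, was 6.24, 6.49 and 6.69 in day-1 TAC, 6.84, 6.54 and 6.81 in day-7 TAC and 6.39, 6.47 and 6.23 in sham. Day-7 TAC lay above sham without overlap, at a fold change of 0.36 (SE 0.12) and an adjusted p of 0.0451. That call was lost, at 0.0601 to 0.135, without day-1 TAC replicate 2, day-7 TAC replicate 1, day-7 TAC replicate 3 or any 1 of the sham libraries.

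Of the parvins, which bind actin, Parvb was called and Parva was not. Parvb, the parvin known from heart and skeletal muscle, was 7.30, 7.21 and 7.15 in day-1 TAC, 7.26, 7.07 and 7.22 in day-7 TAC and 6.69, 6.95 and 6.99 in sham. No TAC library overlapped sham, and all were higher. The fold change was 0.34 (SE 0.09) in day-1 TAC, with an adjusted p of 0.0154, and 0.31 (SE 0.09) in day-7 TAC, with an adjusted p of 0.0279, lost at 0.0785 to 0.0923 without day-7 TAC replicate 1, day-7 TAC replicate 3 or sham replicate 1. Parva averaged 6.82 ± 0.13 in day-1 TAC, 6.84 ± 0.07 in day-7 TAC and 6.74 ± 0.05 in sham (SD, n = 3 each), with overlapping groups.

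Among the kinases and signalling scaffolds, Bcar1 was called and Ptk2, Src, Pxn and Zyx were not. Bcar1, the Cas scaffold that Src-family kinases phosphorylate when it is stretched, was 5.36, 5.42 and 5.23 in day-1 TAC, 5.47, 5.57 and 5.36 in day-7 TAC and 4.81, 4.99 and 5.09 in sham. Every TAC library lay above every sham library. This was a fold change of 0.37 (SE 0.10) in day-1 TAC, with an adjusted p of 0.0133, and 0.50 (SE 0.10) in day-7 TAC, with an adjusted p of 0.00389, and both calls held whichever library was left out.

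Ptk2, focal adhesion kinase, was 6.69, 6.54 and 6.54 in day-1 TAC, 6.61, 6.59 and 6.67 in day-7 TAC and 6.42, 6.46 and 6.49 in sham. Every TAC library lay above every sham library, which was the case for Src and Zyx too. The Ptk2 fold change of 0.14 in day-1 TAC had an adjusted p of 0.134 and that of 0.17 in day-7 TAC one of 0.0795. Src, the founding kinase of its family, ranged from 2.81 to 3.13 in day-1 TAC, from 2.82 to 3.00 in day-7 TAC and from 2.44 to 2.73 in sham, with fold changes of 0.37 (adjusted p 0.0599) and 0.36 (adjusted p 0.0763).

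Zyx, or zyxin, which gathers on strained actin fibres, ranged from 6.29 to 6.73 in day-1 TAC, from 6.38 to 6.48 in day-7 TAC and from 6.15 to 6.21 in sham, with fold changes of 0.28 (adjusted p 0.0575) and 0.25 (adjusted p 0.0948) against sham. The Zyx adjusted p in day-1 TAC was 0.0309 without day-1 TAC replicate 2, and in day-7 TAC it was 0.0118 without day-1 TAC replicate 1. With the recovered reads rescaled by a trimmed mean, Src and Zyx were called in day-1 TAC, at 0.0412 and 0.0358. Pxn, or paxillin, averaged 5.84 ± 0.13 in day-1 TAC, 5.99 ± 0.04 in day-7 TAC and 5.92 ± 0.11 in sham (SD, n = 3 each), with overlapping groups. Counted over all genes tested, 48.0% did not overlap between day-1 TAC and sham and 46.7% did not between day-7 TAC and sham, against 20 members, or 57.1%, and 19 members, or 54.3%. Between the TAC groups the share was 38.9% of all genes and 12 members, or 34.3%.

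Itgb1bp2, or melusin, a muscle chaperone-like protein that binds the beta1 tail, was 7.84, 8.25 and 8.17 in day-1 TAC, 7.91, 7.82 and 7.69 in day-7 TAC and 8.14, 8.27 and 8.26 in sham. Day-7 TAC lay below sham without overlap, and day-1 TAC overlapped with both. limma gave a fold change of -0.42 (SE 0.10) in day-7 TAC against sham, with an adjusted p of 0.0142, or 0.0554 without day-7 TAC replicate 3. It was -0.14 in day-1 TAC against sham, with an adjusted p of 0.332, and 0.28 in day-1 TAC against day-7 TAC, with an adjusted p of 0.0914, or 0.016 without day-1 TAC replicate 1. The gene lies on chromosome X. Of 12 cardiomyocyte markers, 1 was higher and 2 lower in day-7 TAC against sham, and their part in the Itgb1bp2 and Itga7 results was not tested.

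Set side by side, 6 members were higher than sham in both TAC groups, namely Bcar1, Ilk, Itga9, Itgb3, Parvb and Tln1, and 1, Itgb5, was lower in both. These were 17.1% and 2.86% of the members. Of all 13712 genes tested, 7.23% were higher in both and 1374 genes were lower in both. Both comparisons share the sham libraries. Without sham replicate 1, Ilk, Itgb3, Tln1 and Itgb5 lost their day-1 TAC call, and Itgb3, Parvb and Itgb5 lost their day-7 TAC call. A further 8 were called with day-1 TAC and not with day-7 TAC, or 22.9% against 17.3% of all genes, and 5 with day-7 TAC and not with day-1 TAC, or 14.3% against 11.4%. Of those 13, the direct test between the TAC groups called 7: Itga6, Itgb6, Lims1, Tln2, Tns1, Itga5 and Itga7. For the others, Itgb2, Itgb8, Fermt2, Itga2, Lims2 and Itgb1bp2, the direct test did not call a difference. Itga8 was called in the direct test without a call against sham.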

How the data were processed

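Total RNA of the left ventricle was sequenced after mRNA purification as single-end reads of 50 cycles, per the labels' protocols. The submitters' processing notes list STAR, Trim Galore and edgeR and build mm10, but no version, and the strand setting of the counting was not given in the sources. The authors deposited log2 values for 16710 rows and 9 libraries, which the header calls TMM-scaled. On the linear scale 100.0% were multiples of 1 step to within 0.001 reads, which gave 18538900 to 26529531 reads per library with the lowest value taken as 1 read. The 12 rows of 3 symbols that stood on several rows were left out. Of the sham columns, 2 carry the same name, so sham numbers 2 and 3 follow column order.

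The values were fitted with limma 3.58.1 in R 4.3.3, in a single model of 3 groups with an intensity trend, two-sided, and the step was tested on simulated data. Positions and exon lengths are from GENCODE M21 and promoters from RefSeq, with a window for 25 members. Alternatives were other filters, a pseudocount, other scalings, fewer samples and, chosen after seeing the data, limma-voom on recovered reads. The members, gene lists and markers were chosen with earlier results of these data known. Members called in any comparison, and Itgb1, Itga7, Itgb1bp2, Vcl, Ilk, Ptk2 and Tln1, were named with every value, the others by ranges or means, and up to 4 called genes of each list were eligible to be named. Some list genes eligible under this rule are not reported here.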

Additional observations from a re-analysis of the deposited data

Results flagged for a closer look

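For 8 members the direct test between the TAC groups found a difference, in the single limma model with p-values adjusted over all genes tested, where 16.7% of all genes were called. The fold changes in day-1 TAC against day-7 TAC were -0.45 for Itga5, -0.43 for Itga8, 0.29 for Itga6, 0.47 for Itga7, 1.21 for Itgb6, -0.40 for Tln2, -0.61 for Tns1 and -0.33 for Lims1. Their adjusted p-values were 0.0052, 0.03, 0.0361, 0.0118, 0.0239, 0.0104, 0.0133 and 0.0175 in the same order. For all 8, every day-1 TAC library lay on the same side of every day-7 TAC library. Of these calls, 3 held whichever library was left out: Itga5, Itga7 and Tln2. The others lost their call without 1 or more libraries, which are named beside each gene.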

How the results depend on the processing

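The number of members called was 7 to 15 in day-1 TAC against sham, 7 to 14 in day-7 TAC against sham and 4 to 9 in day-1 TAC against day-7 TAC when each library was left out in turn, with 15, 12 and 8 in the full set. Over all genes the counts were 3240 to 4522, 2587 to 4397 and 1258 to 2495, against 4776, 3962 and 2287. With the TAC replicate number as a block, 5 members and 1167 genes were called between the TAC groups, and Itga8, Itga6 and Lims1 were lost at 0.0597, 0.115 and 0.0631. Same-numbered TAC libraries deviated with correlations of -0.224, -0.11 and -0.0365. With so few libraries these values cannot show whether same-numbered libraries share a batch or litter, which was not tested. No paired analysis was possible for the sham comparisons because 2 sham columns carry the same name. Other settings (filter, pseudocount, scaling, limma-voom on recovered reads, a fit of 2 groups, no intensity trend) called 11 to 17, 10 to 13 and 7 to 8 members. No called value changed sign. The values that did were not called, and over the left-out libraries they ranged, in day-1 TAC against sham, from -0.035 to 0.324 (Itgav), -0.007 to 0.157 (Itga7), -0.113 to 0.238 (Itga10), -0.081 to 0.114 (Itgb1), -0.432 to 0.022 (Itgb4) and -0.001 to 0.222 (Lims2). In day-7 TAC against sham the ranges were -0.124 to 0.025 (Itgav), -0.166 to 0.067 (Itga3), -0.074 to 0.015 (Itga6), -0.106 to 0.128 (Itga1), -0.248 to 0.103 (Itga10), -0.142 to 0.07 (Itga4), -0.552 to 0.166 (Itgb6) and -0.075 to 0.032 (Lims1). In day-1 TAC against day-7 TAC they were -0.308 to 0.037 (Itgb3), -0.067 to 0.126 (Itgb5), -0.091 to 0.027 (Parva), -0.023 to 0.073 (Parvb), -0.091 to 0.071 (Src) and -0.108 to 0.112 (Zyx). Parva was also 0.011 under trimmed-mean scaling, 0.013 under median-of-ratios scaling and 0.011 with limma-voom. The cause of these changes was not tested. Rescaling shifted no library by more than 0.036, but it moved the split of calls in day-1 TAC against sham. With trimmed-mean scaling, 34.3% of members were higher and 14.3% lower there, against 16.7% and 17.7% of all genes. In the main fit these shares were 28.6% and 14.3% of members and 14.3% and 20.5% of all genes. The planned count tests were left out because the deposited unit is log2, though whole reads could be recovered. In their place limma-voom was run on the recovered reads.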

Other observations

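Genes that bind, steer or work beside these receptors were counted over lists chosen with earlier results of these data known. Among 42 tested integrin ligands, 19 were higher and 4 lower in day-1 TAC against sham, 10 were higher and 5 lower in day-7 TAC against sham, and 7 were higher and 4 lower in day-1 TAC against day-7 TAC. Over all genes tested, the shares called higher and lower were 14.3% and 20.5% in the first of these comparisons, 13.8% and 15.1% in the second, and 6.42% and 10.3% in the third. The median fold change of the ligands was 0.26, 0.21 and 0.06 in these comparisons, where that of all genes tested was -0.04, -0.01 and -0.03. The summed level of 10 fibroblast markers was 5740 to 7670 in day-1 TAC, 5310 to 5950 in day-7 TAC and 4190 to 5540 in sham. Of these markers, 4 were higher and 1 lower in day-1 TAC against sham, and 1 was higher and 0 lower in day-7 TAC. The ligand list holds 4 of them, Col1a1, Col1a2, Col3a1 and Postn, and the part of fibroblasts in the ligand counts was not tested. Thbs1, or thrombospondin-1, rose against sham by 1.86 on the log2 scale in day-1 TAC (adjusted p 0.001) and by 1.23 in day-7 TAC (adjusted p 0.00909). Thbs2 fell by 0.86 in day-1 TAC against sham (adjusted p 0.00112). Spp1, osteopontin, a ligand of the receptor with Itga9, averaged 0.80 in day-1 TAC, 1.30 in day-7 TAC and -2.45 in sham, where it had few reads, with an adjusted p of 0.0029 and 0.0018. Tgfbi was higher in day-1 TAC than in day-7 TAC by 0.83 (adjusted p 0.00358), and Nov was lower by a fold change of -1.47 (adjusted p 0.00391).

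Of 47 other tested focal adhesion adaptors and kinases, 15 were higher and 6 lower in day-1 TAC against sham, 13 were higher and 2 lower in day-7 TAC against sham, and 3 were higher and 7 lower in day-1 TAC against day-7 TAC, beside the shares of 14.3% higher and 20.5% lower, 13.8% and 15.1%, and 6.42% and 10.3% over all genes. Ppfia1, or liprin-alpha1, averaged 6.88 in day-1 TAC, 7.67 in day-7 TAC and 6.47 in sham, with a fold change of -0.79 between the TAC groups (adjusted p 0.00316). Arhgap26, which binds focal adhesion kinase, had fold changes against sham of -0.85 in day-1 TAC (adjusted p 0.000176) and -0.73 in day-7 TAC (adjusted p 0.000402). Tgfb1i1, a paxillin relative also called Hic-5, rose by 0.71 in day-1 TAC (adjusted p 0.00115) and by 0.84 in day-7 TAC (adjusted p 0.000625). Of 16 integrin activators and inhibitors, 3 were higher and 1 lower in day-1 TAC against sham, 2 were higher and 1 lower in day-7 TAC, and 1 was higher and 3 lower in day-1 TAC against day-7 TAC, beside the same shares over all genes. Cd47, an integrin-associated membrane protein, averaged 5.60 in day-1 TAC, 5.50 in day-7 TAC and 6.13 in sham, with an adjusted p of 0.00133 and 0.000688.

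The dystrophin-glycoprotein complex is the other main link of heart muscle to laminin. Of its 17 tested genes, 0 were higher and 7 lower in day-1 TAC against sham, 2 were higher and 6 lower in day-7 TAC, and 1 was higher and 2 lower in day-1 TAC against day-7 TAC. In these comparisons 14.3% of all genes were higher and 20.5% lower, 13.8% higher and 15.1% lower, and 6.42% higher and 10.3% lower. Sspn, or sarcospan, averaged 8.27 in day-1 TAC, 8.31 in day-7 TAC and 8.68 in sham, with an adjusted p of 0.00221 and 0.00448. Sntb1, a syntrophin, rose by 1.29 in day-7 TAC (adjusted p 0.000745).

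Of 6 integrin subunits outside the 36 genes, 4 passed the filter. Itgad, a leukocyte subunit, stood at 6.13 to 6.21 in day-1 TAC, 5.88 to 6.34 in day-7 TAC and 6.35 to 6.56 in sham, above Itgam in every library. Of its exon bases, 7.3% overlap Gm17831 on the same strand, and 8.6%, 2.3% and 1.6% overlap 4931431B13Rik, Gm39091 and Cox6a2 on the opposite strand, so its values are uncertain.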
